A study of Mus musculus with 12 samples.

Results

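The glycolytic and hypoxia-induced genes described here are 33 mouse genes, listed by name with no threshold on their values but with earlier results of these data known, of 20432 genes in the deposited expression table. All 33 had reads in every library, and all 33 were among the 12734 genes tested. Those genes reached 1 count per 1e+06 reads, before the authors' scaling, in at least 6 libraries. Levels are given in CPM, counts per 1e+06 reads as scaled by the authors. The list holds 3 transporters of glucose or lactate, 14 glycolytic enzymes, 3 regulators of glycolytic or pyruvate flux, 2 oxygen-sensing hydroxylases and 11 other genes known to be induced by low oxygen. The study profiled 6 mouse pancreatic ductal adenocarcinoma (PDAC) cell lines, numbered 52205, 52419, 52424, 53105, 53369 and 53371, each once after Cre and once as the parental culture. Cre cultures, labelled JAK1 knockout, were parental cells transduced with the pBabe-Cre-puro retrovirus and selected in puromycin raised through 2, 4 and 7 µg/ml. Parental cultures were labelled wild type. The question behind the comparison is what loss of the kinase JAK1 does to these cancer cells. All cultures grew in DMEM with serum, and the labels name no low-oxygen treatment. Each Cre culture is a selected population, and cultures given an empty virus were not analysed here, so Cre, infection, selection and time in culture cannot be told apart.

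Glycolysis splits glucose to pyruvate, and lactate dehydrogenase turns pyruvate to lactate that leaves the cell through monocarboxylate transporters. In oxygen, prolyl hydroxylases (Egln1 and Egln3 here) mark the alpha subunits of hypoxia-inducible factor (HIF) for destruction. When oxygen is short, HIF persists, binds a short DNA motif and raises the transcription of glucose transporters, most glycolytic enzymes and genes such as Vegfa, and pancreatic tumours are known for poor oxygen supply and high glycolytic rates.

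The libraries held 11.5 to 18.0 M reads in genes (M, 1e+06 reads), and 1 read was worth 0.0569 to 0.0896 CPM, so only the few members near 1 CPM were limited by counting. Jak1 itself averaged 168 ± 44.2 CPM in Cre cells and 170 ± 26.7 CPM in parental cells (SD, n = 6 each; limma log2 change -0.04 ± 0.09 SE, adjusted p = 0.838). A whole-gene read sum need not show the loss of a few exons. Reads per exon were not examined, so the loss of JAK1 rests here on the labels. All 12 libraries resembled the other library of their own line most closely. The 6 ductal and epithelial markers (Krt8, Krt18, Krt19, Epcam, Cdh1, Sox9) summed to 358 to 9258 CPM in Cre cells and 442 to 7515 CPM in parental cells. Line 52419 was the lowest in both and had 3 of the 6 markers under 1 CPM in both libraries, and line 53369 had 1, so the ductal label is only partly met in these 2 lines. Fibroblast and stellate markers, with 5 of 6 in the table, summed to 7.86 to 712 CPM in Cre cells and 9.69 to 1342 CPM in parental cells, highest in line 53369 and then 52419. Acinar, leukocyte and endothelial markers summed to at most 18.8 CPM in Cre cells and 23.4 CPM in parental cells.

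The HIF-binding core is written here as ACGTG or GCGTG, read on both strands (CACGT and CACGC on the reverse). In the RefSeq promoter table for GRCm38.p6, which gives 250 bases before to 50 bases after each gene start, 31 of the 33 members had an entry, and Slc2a3 and Ndrg1 had none. The core was in 36 of 46 member promoters (78.3%) and in 14380 of 32851 promoters of the whole table (43.8%). By gene, 29 of 31 members held it in at least 1 promoter, including 10 of 10 of the other hypoxia-induced genes and 12 of 14 glycolytic enzymes. ACGTG alone was in 54.3% of member promoters and 19.6% of all. The E-box CACGTG, which contains ACGTG, was in 6.52% of member promoters and 7.15% of all. Member promoters also had a higher GC content (median 63.2%) than the whole table (52.7%), with a median of 21 CG dinucleotides against 7, and the part of base composition in the motif share was not tested. The promoters of the 4 members with the smallest p between Cre and parental cells follow, to show where the cores lie relative to the start. Each runs 5′ to 3′ on the gene's strand, the last 50 bases follow the start, and capitals mark each core match. Ero1a lies at chr14:45318523-45318822 (minus strand), P4ha2 at chr11:54100674-54100973 (plus), Adm at chr7:110627407-110627706 (plus) and Bnip3 at chr7:138909457-138909756 (minus).
Ero1a: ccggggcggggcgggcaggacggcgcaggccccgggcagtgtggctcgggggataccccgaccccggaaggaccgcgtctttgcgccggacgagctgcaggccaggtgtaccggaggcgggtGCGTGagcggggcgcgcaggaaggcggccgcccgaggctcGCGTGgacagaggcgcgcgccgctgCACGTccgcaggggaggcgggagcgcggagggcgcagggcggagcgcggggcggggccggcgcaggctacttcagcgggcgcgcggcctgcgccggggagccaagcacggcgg
P4ha2: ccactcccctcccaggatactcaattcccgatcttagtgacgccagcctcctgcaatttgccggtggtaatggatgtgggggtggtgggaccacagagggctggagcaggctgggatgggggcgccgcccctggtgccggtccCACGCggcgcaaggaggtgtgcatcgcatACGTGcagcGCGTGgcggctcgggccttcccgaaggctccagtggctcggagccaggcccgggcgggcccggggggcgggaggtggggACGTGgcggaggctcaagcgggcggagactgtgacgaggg
Adm: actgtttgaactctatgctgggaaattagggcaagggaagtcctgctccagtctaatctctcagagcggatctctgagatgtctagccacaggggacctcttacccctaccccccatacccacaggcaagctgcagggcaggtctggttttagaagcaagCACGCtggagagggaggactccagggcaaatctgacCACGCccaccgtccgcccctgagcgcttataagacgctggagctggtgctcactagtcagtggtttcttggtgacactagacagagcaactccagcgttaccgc
Bnip3: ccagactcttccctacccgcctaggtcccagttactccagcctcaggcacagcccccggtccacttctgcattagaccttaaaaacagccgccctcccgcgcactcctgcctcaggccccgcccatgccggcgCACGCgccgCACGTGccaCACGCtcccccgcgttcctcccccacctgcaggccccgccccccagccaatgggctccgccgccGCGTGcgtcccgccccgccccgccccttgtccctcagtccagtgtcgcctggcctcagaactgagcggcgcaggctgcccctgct
Ero1a held 3 matches, P4ha2 4, Adm 2 and Bnip3 5, the last counting both strands of 1 CACGTG. A match describes these letters only and shows no binding.

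Across the members, Cre libraries tended to the lower side for the hypoxia-induced genes and not for the enzymes of glycolysis, and no single member passed the limma test across all genes. With limma and the line as a block, 0 of 33 members had an adjusted p under 0.05 (smallest 0.140), where 0.0236% of the 12734 genes did (3 genes). At an unadjusted p under 0.05, 11 members were lower in Cre cells (33.3%), where 8.18% of all genes were, and 1 member, Pkm, was higher (3.03%), where 6.96% of all genes were. One of the 11, Adm, entered the test through the parental group. Under a filter of 1 CPM in all 12 libraries, which leaves out Adm, 9 of 28 members were lower at that p, where 7.83% of all genes were. Run on the reads behind the values, edgeR's quasi-likelihood test called 0 members, where it called 0.0393% of genes lower and 0% higher. At an unadjusted edgeR p under 0.05, 10 members were lower and 1 higher, where 8.1% and 6.49% of all genes were. DESeq2 called 2 members lower, Ero1a and P4ha2, where it called 1.63% of all genes lower, and 0 higher, where it called 0.487%. All members' Cre and parental ranges overlapped, and non-overlap with Cre lower held for 0.055% of all genes. Estimates were below 0 for 24 of 33 members (72.7%) and for 50.1% of all genes, with medians of -0.18 and -0.00. Without line 52424 the members' median was -0.09, and with libraries weighted by quality it was -0.07. Without the line block, 3 members instead of 11 were lower at an unadjusted p under 0.05, where 0.628% instead of 8.18% of all genes were. Each line and condition has 1 library, so a p-value here measures the spread of the pair differences over lines. In bulk RNA, fewer cells that express a gene and less RNA per cell cannot be told apart.

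**Figure D1:**
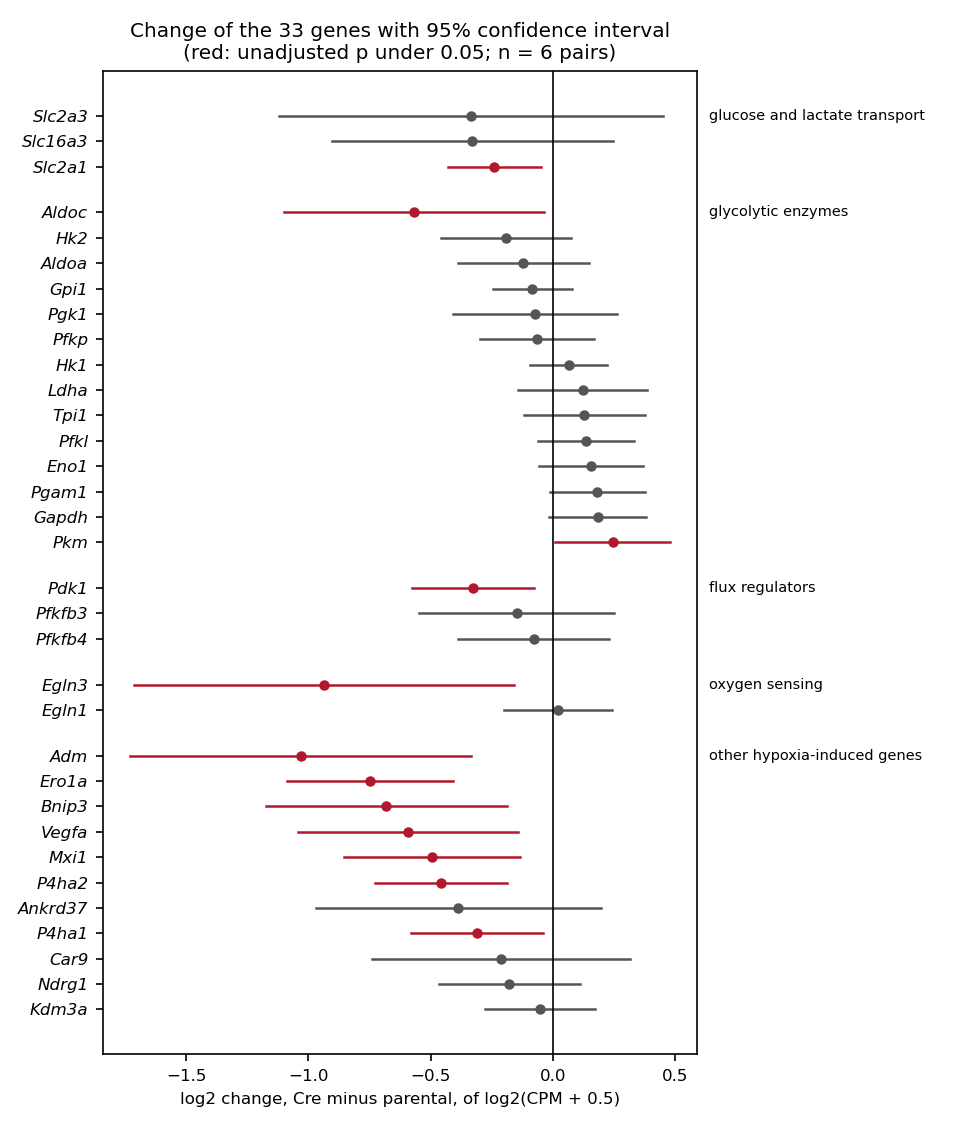
Log2 change of each of the 33 members (Cre minus parental, on log2(CPM + 0.5)) from limma with the line as a block, with 95% confidence intervals, ordered by role and red at an unadjusted p under 0.05. The 11 other hypoxia-induced genes all have estimates below 0, while the glycolytic enzymes lie on both sides of 0 and within 0.25 of it apart from Aldoc.

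Among the other hypoxia-induced genes, all 11 estimates were below 0, with a median of -0.46. Of these, 7 were lower in Cre cells at an unadjusted limma p under 0.05 and 0 higher, where 8.18% and 6.96% of all genes were. An estimate below 0 held for all 11 under every alternative that kept all 11 genes, except that Kdm3a was at 0.03 without line 52419. Under the filter of 1 CPM in all 12 libraries, which leaves out Adm, 6 of 8 were lower at an unadjusted p under 0.05, where 7.83% of all genes were. The summed fibroblast and stellate markers were also lower in Cre cells in 6 of 6 pairs. They stood at 712 against 1342 CPM in 53369 and 51.3 against 74.2 CPM in 53105, but were nearly level in 52424, at 13.7 against 14.0 CPM. Taken singly, 3 of the 4 fibroblast and stellate markers that were tested had estimates below 0. The part of these markers in the differences of the hypoxia-induced genes was not tested. Ero1a, which encodes an oxidoreductase that forms disulfide bonds in the endoplasmic reticulum, had the smallest p of all members. It lies on chromosome 14 from 45283087 to 45318572 (GRCm38). Its levels in lines 52205, 52419, 52424, 53105, 53369 and 53371 were 163, 133, 60.8, 66.9, 107 and 107 CPM in Cre cells, against 213, 292, 174, 90.1, 138 and 170.4 CPM in parental cells. Cre was lower in all 6 pairs, most in 52424 and 52419, yet the groups overlap, with 4 Cre cultures above the parental culture of 53105. The mean was 106 ± 38.7 CPM in Cre cells and 179 ± 68.6 CPM in parental cells (SD, n = 6 each). The log2 change was -0.75 ± 0.15 SE (limma adjusted p = 0.140, with 836 to 3922 reads per library). DESeq2 gave an adjusted p of 0.00141.

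P4ha2 and P4ha1 encode catalytic subunits of collagen prolyl 4-hydroxylase, the enzyme that hydroxylates proline in collagen chains. P4ha2, on chromosome 11 from 54100924 to 54131668, measured 35.0, 43.8, 27.8, 42.4, 40.9 and 61.02 CPM in Cre cells, against 57.4, 62.1, 49.7, 55.2, 36.9 and 86.1 CPM in parental cells, in the line order above. Line 53369 was the exception, with the Cre culture slightly the higher. The change was -0.46 ± 0.12 SE on the log2 scale (limma adjusted p = 0.204; DESeq2 adjusted p = 0.0482). P4ha1, on chromosome 10 from 59323197 to 59373304, was at 83.5, 106, 57.4, 98.0, 104 and 84.3 CPM in Cre cells, against 71.0, 144, 100.1, 114, 114 and 118 CPM in parental cells. It was lower in 5 of 6 pairs, with 52205 the other way, at -0.31 ± 0.12 SE (limma adjusted p = 0.295). The largest p for P4ha1 with a pair left out was 0.0888.

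Adm encodes the precursor of adrenomedullin, a peptide that widens blood vessels, and it was scarce in these cells, with 8 to 88 reads per library. It lies on chromosome 7 from 110627657 to 110629820. Before the authors' scaling, only 2 Cre libraries but 5 parental libraries reached 1 CPM, so it entered the test through the parental group. It measured 0.896, 1.31, 0.873, 0.475, 1.00 and 1.27 CPM in Cre cells, against 1.58, 6.54, 5.25, 0.512, 3.67 and 1.34 CPM in parental cells. The 3 highest values were the parental cultures of 52419, 52424 and 53369, while in 53105 and 53371 the pair was nearly level. The change was -1.03 ± 0.31 SE (limma adjusted p = 0.245; DESeq2 adjusted p = 0.0867).

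Bnip3 encodes a mitochondrial protein that recruits the autophagy machinery, and lies on chromosome 7 from 138890836 to 138909506. It measured 41.2, 25.8, 26.2, 29.0, 15.4 and 29.5 CPM in Cre cells, against 31.2, 76.8, 59.8, 41.6, 18.5 and 58.8 CPM in parental cells. Cre was lower in 5 of 6 pairs and higher in 52205. The change was -0.68 ± 0.22 SE (limma adjusted p = 0.257). In 21.9% of its 50-base windows the transcript matches another annotated gene, so part of its reads may be shared.

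Vegfa, the growth factor that drives blood vessel sprouting (chromosome 17, 46016993 to 46032377), stood at 231, 79.3, 99.1, 64.5, 55.2 and 154 CPM in Cre cells, against 255, 101, 323, 76.3, 57.9 and 319 CPM in parental cells. All 6 pairs were lower, but the pair differences of 52424 and 53371, at -1.70 and -1.05, were far from the other 4, which lay between -0.35 and -0.07. The change was -0.59 ± 0.20 SE (limma adjusted p = 0.262). Without 52424 the estimate was -0.37. Mxi1, whose protein competes with Myc for their shared partner Max (chromosome 19, 53310128 to 53373293), stood at 93.8, 46.9, 52.9, 100.5, 79.1 and 63.1 CPM in Cre cells, against 101, 93.3, 71.3, 95.03, 98.8 and 146 CPM in parental cells. It was lower in 5 of 6 pairs, most in 53371 and 52419, at -0.49 ± 0.16 SE (limma adjusted p = 0.257).

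**Figure D2:**
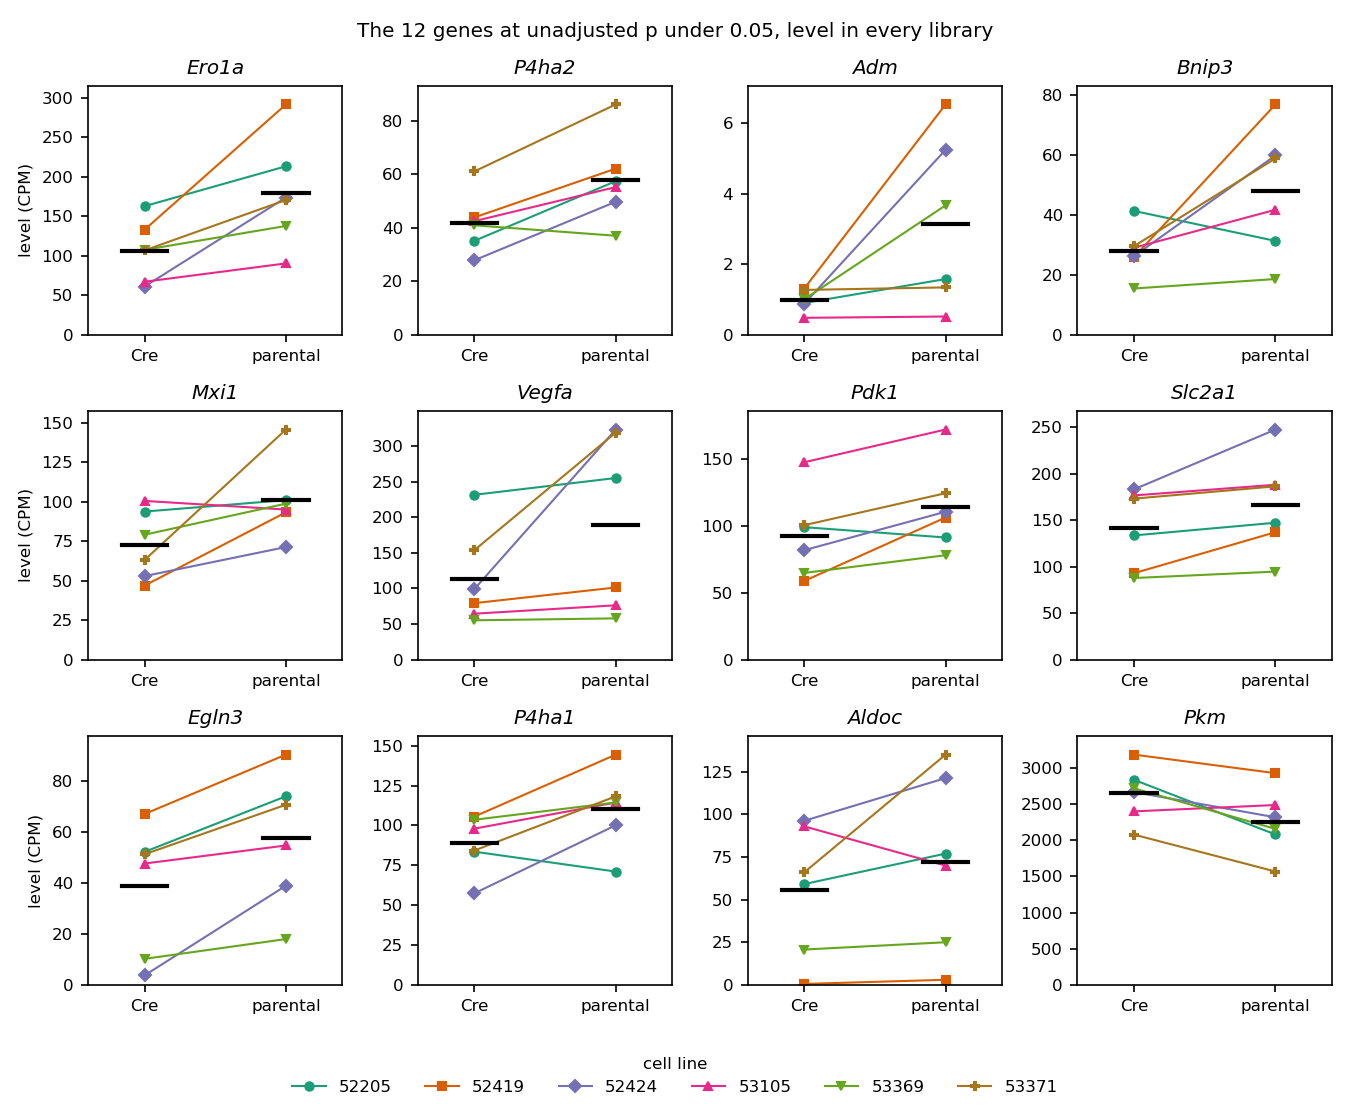
Level in CPM (linear axes from 0) in each library for the members at an unadjusted p under 0.05, with Cre left and parental right and a line joining the 2 libraries of each cell line and a black bar at each mean. Ero1a slopes the same way in all 6 lines, while for Vegfa the steep lines are those of 52424 and 53371.

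The remaining 4 hypoxia-induced genes had estimates between -0.39 and -0.05 and unadjusted p of 0.168 to 0.613. Ankrd37, an ankyrin-repeat gene, had 3.46 CPM in Cre cells and 11.4 CPM in parental cells of line 52419, and 4.00 against 8.78 CPM in 52424, but the Cre culture was the higher in 52205, 53105 and 53369. Car9, a cell-surface carbonic anhydrase often used as a hypoxia marker, ranged from 0.429 to 4.12 CPM in Cre cells (median 1.30) and from 0.306 to 5.75 CPM in parental cells (median 1.95), with 4 to 73 reads, too few for a small difference to be detectable. Ndrg1 had a median of 90.3 CPM in Cre cells and 118 CPM in parental cells, at -0.18. Kdm3a, a histone H3 lysine 9 demethylase, had medians of 86.7 CPM in Cre cells and 88.4 CPM in parental cells, at -0.05.

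Of the oxygen sensors, Egln3 carried the widest single pair difference of any member. It lies on chromosome 12 from 54178981 to 54203874. It measured 52.1, 66.9, 3.64, 47.5, 10.1 and 51.1 CPM in Cre cells, against 73.9, 90.2, 38.8, 54.6, 17.9 and 70.6 CPM in parental cells. All 6 pairs were lower, by -0.79 to -0.20 on the log2 scale in 5 lines and by -3.25 in line 52424. The change was -0.94 ± 0.35 SE (limma adjusted p = 0.290), and without 52424 it was -0.48. Egln1, the main HIF prolyl hydroxylase in most cells, had medians of 93.0 CPM in Cre cells and 97.02 CPM in parental cells, with an estimate of 0.02 (95% confidence interval -0.20 to 0.24). Its sign turned without 53369 or without 53371.

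Slc2a1, which encodes the basal glucose transporter GLUT1, was lower in every pair. It lies on chromosome 4 from 119108745 to 119137330. It stood at 134, 93.1, 183, 177, 87.9 and 173 CPM in Cre cells, against 147, 137, 248, 188, 94.8 and 187 CPM in parental cells. The pair differences were -0.56 and -0.43 in 52419 and 52424 and -0.14 to -0.09 in the other 4. The change was -0.24 ± 0.08 SE (limma adjusted p = 0.276), and the largest p with a pair left out was 0.0709. Slc2a3, the high-affinity transporter GLUT3, was expressed mainly in line 52419, at 14.7 CPM in Cre cells against 62.8 CPM in parental cells. In the other 5 lines it lay between 0.655 and 2.00 CPM in Cre cells and between 0.0861 and 2.68 CPM in parental cells. Only 3 Cre and 4 parental libraries reached 1 CPM. The estimate of -0.34 turned to 0.0093 without 52419. Slc16a3, the lactate exporter MCT4, ranged from 13.0 to 359.9 CPM in Cre cells and from 33.4 to 275 CPM in parental cells, and its pairs split, with Cre higher in 52205 and 53105 and lower in the other 4 (limma adjusted p = 0.559).

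Among the regulators, Pdk1 encodes a kinase that switches off pyruvate dehydrogenase, and lies on chromosome 2 from 71873215 to 71903858. It stood at 98.8, 58.6, 81.6, 147, 64.6 and 100.2 CPM in Cre cells, against 91.1, 106, 110.3, 172, 77.9 and 124 CPM in parental cells. It was lower in 5 of 6 pairs, most in 52419, at -0.33 ± 0.11 SE (limma adjusted p = 0.264). Pfkfb3 and Pfkfb4 encode enzymes that make and break fructose-2,6-bisphosphate, the activator of phosphofructokinase. Pfkfb3 had medians of 31.2 CPM in Cre cells and 33.6 CPM in parental cells and an estimate of -0.15, with pair differences from -0.98 in 52424 to 0.48 in 52419. Pfkfb4 had medians of 10.3 CPM in Cre cells and 10.1 CPM in parental cells and an estimate of -0.08, and the signs of both turned without 52424 and with library weights.

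The estimates of the 14 glycolytic enzymes lay on both sides of 0. Their median was 0.09, and 6 were below 0 and 8 above. At an unadjusted limma p under 0.05, Aldoc was lower and Pkm higher, where 8.18% of all genes were lower and 6.96% higher. Pkm, the pyruvate kinase that makes pyruvate and ATP in the last step, was the most abundant member in CPM, and lies on chromosome 9 from 59656576 to 59679372. It stood at 2838, 3187, 2668, 2401, 2719 and 2079 CPM in Cre cells, against 2081, 2929.7, 2318, 2489, 2158 and 1568 CPM in parental cells. It was higher in 5 of 6 pairs, with 53105 nearly level, at 0.24 ± 0.10 SE (limma adjusted p = 0.320). The largest p with a pair left out was 0.109, and 34.4% of its 50-base windows match another gene. Aldoc, the brain-type aldolase (chromosome 11, 78323073 to 78327781), was at 59.1, 0.461, 96.2, 93.0, 20.6 and 65.9 CPM in Cre cells, against 77.0, 2.90, 121, 69.9, 24.9 and 135 CPM in parental cells. It was almost silent in line 52419, was lower in 5 of 6 pairs, and its estimate was -0.57 ± 0.24 SE (limma adjusted p = 0.313). Line 52419 had the largest difference, on 6 reads in Cre cells and 39 in parental cells, and without it the estimate was -0.32. The largest p with a pair left out was 0.0997.

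The other 12 enzymes, followed down the pathway, had estimates between -0.19 and 0.18. Hexokinases 1 and 2, which trap glucose in the cell, had estimates of 0.06 and -0.19, and phosphoglucose isomerase (Gpi1) of -0.08. The phosphofructokinases Pfkl and Pfkp, at the committed step, had 0.13 and -0.06. Aldoa, the main aldolase, had -0.12, with medians of 1015 CPM in Cre cells and 1155 CPM in parental cells. From Tpi1 to Eno1, the estimates were 0.13 for Tpi1, 0.18 for Gapdh, -0.07 for Pgk1, 0.18 for Pgam1 and 0.16 for Eno1. Ldha, which makes lactate, had 0.12, with medians of 1235 CPM in Cre cells and 1133 CPM in parental cells. Of these 12, unadjusted p ran from 0.0647 for Pgam1 to 0.635 for Pgk1, and the sign of Pfkp turned without 52424 and that of Pgk1 without 52424 or without 53105.

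Several of these enzymes have many processed copies in the genome, and their counts are uncertain. In the GENCODE transcripts, 82.5% of the 50-base windows of Gapdh match other genes, 218 of them, and 72.2% of Eno1, 68.0% of Pgk1 and 41.5% of Pgam1 do. Eno1b, a near copy of Eno1, had 1262.6 to 1868 CPM in Cre cells and 1043 to 1776 CPM in parental cells, while Eno1 itself had 229 to 328 CPM in Cre cells and 162 to 344 CPM in parental cells. Between 10% and 20% was shared for Gpi1, Ldha and Aldoa. No window was shared for 19 of 33 members, among them Ero1a, P4ha1, P4ha2, Adm, Egln3, Slc2a1 and Pdk1.

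The pair differences varied by line. The median over the 11 other hypoxia-induced genes was -0.85 in 52424, -0.56 in 53371 and -0.50 in 52419, but -0.10 in 53105, -0.09 in 52205 and -0.07 in 53369. Over the glycolytic enzymes it was 0.40 in 52205, 0.17 in 53369 and 0.13 in 53371, and -0.06 in 52419, -0.08 in 52424 and -0.11 in 53105. Medians over all tested genes lay within 0.03 of 0 in every line. With 1 Cre and 1 parental library a line, these differences have no replicate check. At least 1.5-fold lower in Cre cells were 13 members in 52424 (39.4%, 10.2% of all genes), 9 in 52419 (27.3%, 7.15% of all genes) and 6 in 53371 (18.2%, 10.6% of all genes). In 52205 there were 3 (Slc2a3, Hk2 and P4ha2; 10.4% of all genes), in 53369 2 (Egln3 and Adm; 3.45%) and in 53105 0 (3.4%). At least 1.5-fold higher were 3 in 52205 (Slc16a3, Tpi1 and Ldha; 5.02% of all genes) and 1 in 52424 (Slc2a3; 8.84%). There were 0 in 52419 (2.82% of all genes), 53105 (5.3%), 53369 (3.1%) and 53371 (10.3%). Of the 2 lines with epithelial markers under 1 CPM, 52419 was among the lines with the lower hypoxia-induced genes and 53369 was not, and the part of those markers in the result was not tested.

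**Figure D3:**
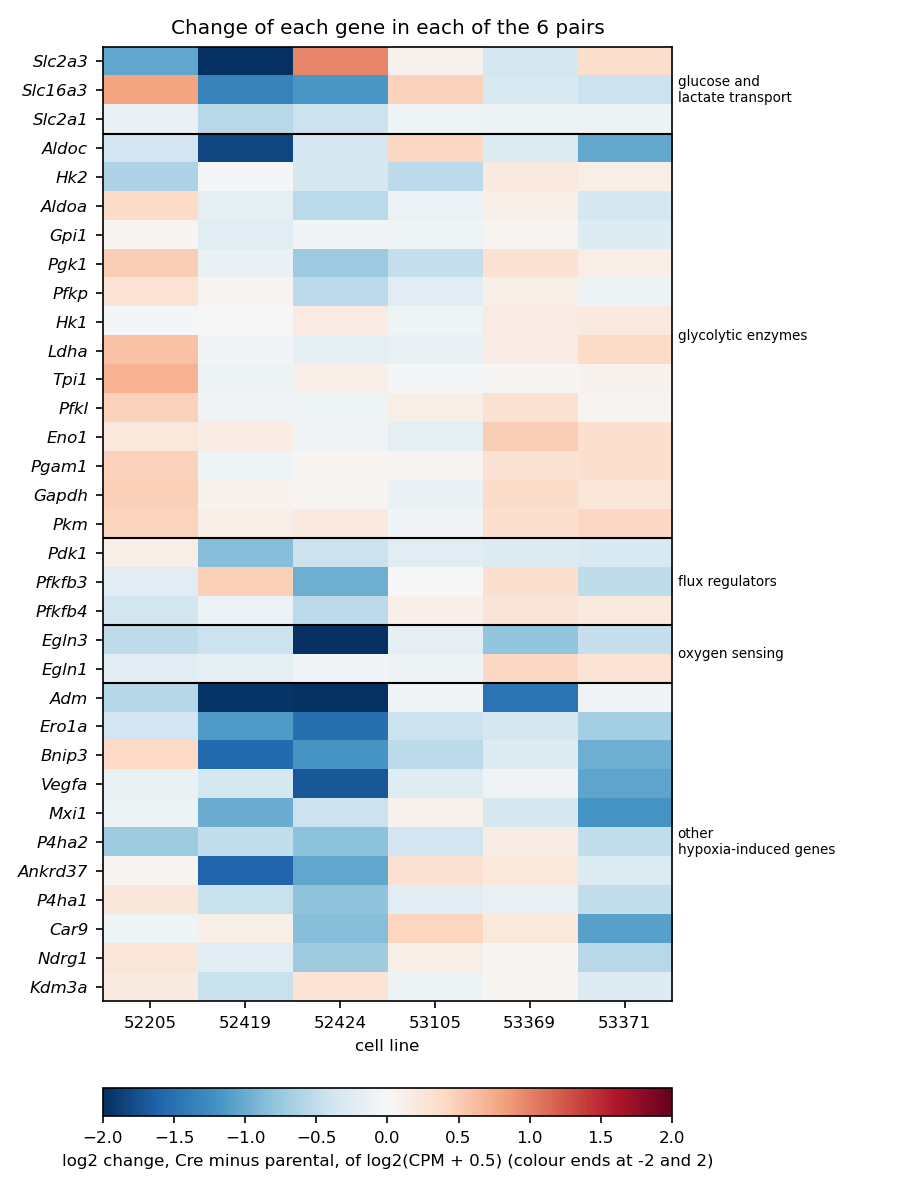
Log2 difference, Cre minus parental, of each member in each of the 6 lines, as a colour map with members in rows by role and lines in columns (colour ends at -2 and 2). The hypoxia-induced rows are most negative in 52424, 52419 and 53371, and the glycolytic rows are mostly positive in 52205, where Tpi1 reaches 0.69.

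Across the 6 pairs, the median pairwise correlation of the pair differences was 0.512 within the 11 other hypoxia-induced genes, 0.517 within the 14 glycolytic enzymes and 0.346 within the 3 transporters. It was -0.03 within the 3 regulators and 0.04 for the 2 oxygen sensors. Between the glycolytic enzymes and the other hypoxia-induced genes it was 0.313, over all members 0.350 and over all tested genes 0.000. All genes of a pair share its 2 libraries, and 6 pairs are few, so these are descriptions. Among genes lower in 6 of 6 pairs were 5 of 33 members, Slc2a1, Egln3, Vegfa, Ero1a and Adm (15.2%), where 4.56% of all genes were. Of these, Adm entered the test through the parental group. Its Cre and parental libraries were nearly level in 53105, with 8 against 9 reads, and in 53371, with 15 against 17. Higher in 6 of 6 pairs were 0 members, where 4.11% of all genes were. Of the 11 members lower at an unadjusted p under 0.05, all 11 kept an estimate below 0 with each pair left out, and 8 kept that p under 0.05. These 11 were picked by that p in the same 6 pairs, so this is a description and no further check.

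The members differed widely between lines, as most genes did. With limma's F test over lines, 26 of 33 members passed an adjusted p of 0.05 (78.8%), and so did 71.1% of all tested genes, so the share is near that of the table as a whole. The standard deviation between lines had a median of 0.465 on the log2 scale over members and 0.373 over all genes, and it exceeded the residual one for 32 of 33 members and for 88.3% of all genes. A range of line means of at least 4-fold was found for 9 members (27.3%), where 20.7% of all tested genes had it. They are Aldoc, with a range of 5.91 on the log2 scale, Slc2a3 with 5.24, Slc16a3 with 3.68, Egln3 with 2.62, Pfkfb3 with 2.51, Car9 with 2.46, Ankrd37 with 2.17, Vegfa with 2.09 and Gapdh with 2.04. Line 52419 had little Aldoc and Slc16a3 and much Slc2a3, in both of its libraries. Line 53369 was the lowest for 14 members (42.4%, against 18.7% of all genes) and the highest for 0 (19.1% of all genes). Pfkl there was at 111 CPM in Cre cells and 89.0 CPM in parental cells, while the other lines had 250.1 CPM or more in Cre cells and 206 CPM or more in parental cells. Gapdh in line 53105 was at 50.1 CPM in Cre cells and 54.6 CPM in parental cells, and Pgk1 there was at 81.2 CPM in Cre cells and 114 CPM in parental cells.

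**Figure D4:**
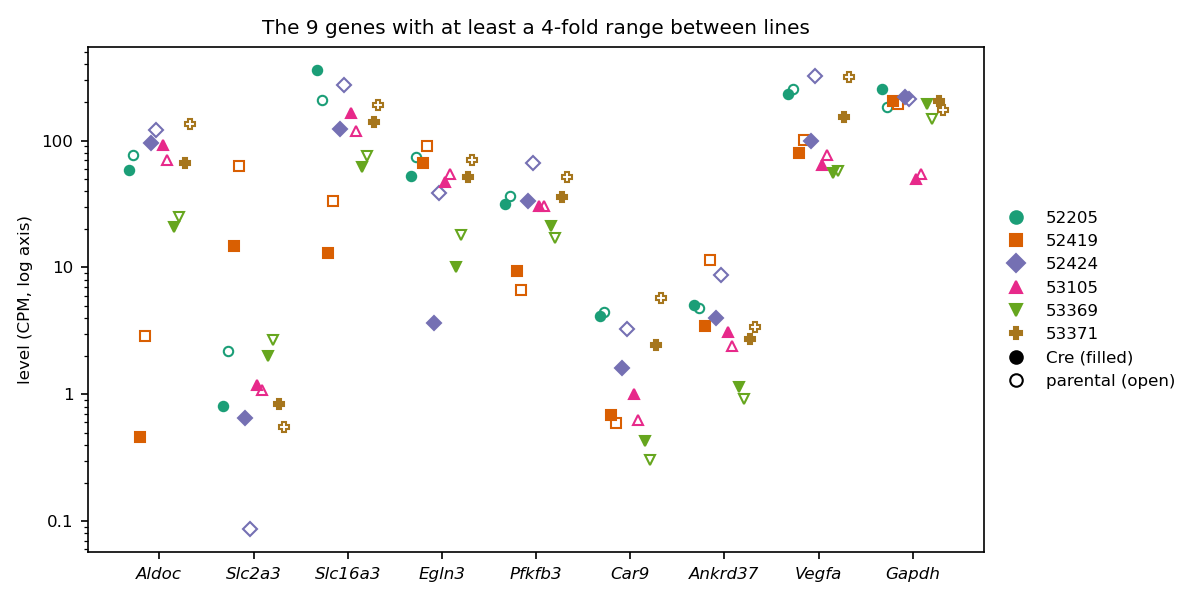
Level in CPM (log axis) of the 9 members with at least a 4-fold range between lines, in every library, with a colour and symbol for each line, filled for Cre and open for parental. Line 52419 is lowest for Aldoc and Slc16a3 and highest for Slc2a3, and 53105 is lowest for Gapdh, in both of their libraries.

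Companion genes of the same pathways, listed separately from the 33, were read in the same fit. Like the members, they were chosen with earlier results of these data known, so they are no independent check. Of 30 further hypoxia-induced genes, 28 were tested and 0 passed the adjusted limma test. Estimates were below 0 for 20, with a median of -0.22, and at an unadjusted p under 0.05 9 were lower and 1 higher, where 50.1% of all genes were below 0, 8.18% lower and 6.96% higher at that p. Stc2, a secreted glycoprotein, averaged 44.6 ± 27.0 CPM in Cre cells and 63.3 ± 27.7 CPM in parental cells (SD, n = 6 each; log2 change -0.61, limma adjusted p = 0.208, DESeq2 adjusted p = 0.0376). Ccng2, a cyclin that restrains the cell cycle, was at -0.30 (limma adjusted p = 0.264), and Pdgfb, a growth factor for stromal cells, was the higher one at 0.36 (limma adjusted p = 0.258). Of 10 genes of the HIF machinery, 9 were tested and 0 passed, and 6 were below 0, with a median of -0.05. At an unadjusted limma p under 0.05, 1 was lower and 0 higher, where 8.18% and 6.96% of all genes were. Hif1a, the oxygen-regulated HIF subunit, averaged 234.5 ± 42.6 CPM in Cre cells and 264 ± 44.0 CPM in parental cells. It was lower in 6 of 6 pairs, as were 4.56% of all genes (log2 change -0.18, limma adjusted p = 0.316). Hif1an, the asparaginyl hydroxylase that curbs HIF activity, was at 0.18 (limma adjusted p = 0.348), and Epas1, which encodes HIF2 alpha, at -0.25 (limma adjusted p = 0.523).

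Of 25 other isozymes and pyruvate-handling genes, 18 were tested and 0 passed the adjusted limma test. Estimates were below 0 for 6, with a median of 0.05, and at an unadjusted p under 0.05 3 were lower (Eno2, Ldhb and Pdk4) and 3 higher (Mpc1, Pklr and Tigar), against the same shares of 8.18% and 6.96% of all genes. Mpc1, a subunit of the carrier that takes pyruvate into mitochondria, averaged 6.32 ± 1.82 CPM in Cre cells and 4.08 ± 0.68 CPM in parental cells. It was higher in 6 of 6 pairs, as were 4.11% of all genes (log2 change 0.54, limma adjusted p = 0.205). Eno2, the neuronal enolase, was at -0.66 (limma adjusted p = 0.230). Ldhb, the lactate dehydrogenase subunit that favours pyruvate, was lower in 6 of 6 pairs, as were 4.56% of all genes, at -0.47 (limma adjusted p = 0.257). Pdk4, Pklr and Tigar were named after their values were seen.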

How the data were processed

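Poly(A)-selected RNA of 12 cultures was sequenced. Tools listed in the submitters' processing notes are featureCounts, edgeR and FastQC 0.11.9, with builds GRCm38 and mm10; the aligner is not given in the sources used here, and no strand-marking step is named. The deposited linear signal values are the authors' counts divided by a scaled library size and are called CPM. Every value was a whole multiple of the value of 1 read (tolerance 0.01), which gave back the reads (100% whole). The second table holds log2 values that the authors deposited for 10903 genes. RefSeq named 19448 Entrez identifiers, GENCODE 11 more, and 973 stayed unnamed.

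Log2(CPM + 0.5) was fitted with limma-trend (limma 3.58.1, R 4.3.3), 2-sided, with the line as a block, since the series calls the cultures isogenic pairs (same-line deviations correlated at 0.73 to 0.95). P-values were Benjamini-Hochberg adjusted over 12734 genes at 1 CPM or more, before the authors' scaling, in at least 6 libraries. A change on this scale understates that of low genes. Alternatives, each run alone, changed the pseudocount, the filter, the scaling, the block or the weights, used the log2 table, left out a pair, or ran DESeq2 1.42.0 or edgeR 4.0.16 on the reads. The fit was tested on simulated data in which Cre changed a gene equally in every line, by more than most members changed here. That test does not cover smaller changes or changes that differ by line. All 33 members are named; values in every library are given at an unadjusted p under 0.05, and 3 genes of smallest p are named per companion list. Members and lists were chosen with earlier results of these data known. Lengths and shared windows came from GENCODE vM21. Figures were drawn with matplotlib 3.10.9.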

Additional observations from a re-analysis of the deposited data

Results flagged for a closer look

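In 11 of 99 groups of 6 values (levels on log2(CPM + 0.5) in Cre or parental libraries, and pair differences), 1 library or pair stood apart from the rest, by a gap to its neighbour above Dixon's critical value for 6 values. Chance alone flags about 1 group in 20.

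Line 52419 stood high for the glucose transporter Slc2a3, at 3.92 in Cre cells (next 1.32) and 5.98 in parental cells (next 1.67). The same line stood low for Aldoc in Cre cells, at -0.057 (next 4.40). Line 53369 stood low for 3 glycolytic enzymes. Pfkl was at 6.80 in Cre cells (next 7.97) and 6.48 in parental cells (next 7.69). Gpi1 was at 7.62 in parental cells (next 8.16), and Aldoa at 9.10 in parental cells (next 10.1). Line 53105 stood low for Gapdh, at 5.66 in Cre cells (next 7.60) and 5.79 in parental cells (next 7.22). For Gapdh, 82.5% of 50-base windows match other genes, and the part of shared reads in its level was not tested.

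Among differences of Cre minus parental, Tpi1 stood high in 52205, at 0.69 (next 0.11), and Egln3 stood low in 52424, at -3.25 (next -0.79).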

How the results depend on the processing

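The count of members with an adjusted p under 0.05 was 0 with limma under the alternatives run and with edgeR, and 2 with DESeq2. Over all tested genes the count was 3, against 0 with no filter, 34 with library weights, 5 with edgeR, 270 with DESeq2 and 0 to 5 with a pair left out. With no replicate block, that is without pairing the 2 libraries of a line, it was 0 for all genes and 0 for members. Of 552 member changes recomputed, 539 kept their direction and side of the threshold, 2 became called (Ero1a and P4ha2, DESeq2) and 11 turned sign. With library weights Pfkfb3 was at 0.074 and Pfkfb4 at 0.024. With a pair left out the change ran from -0.60 to 0.0093 for Slc2a3, -0.13 to 0.028 for Pfkp, -0.19 to 0.058 for Pgk1, -0.28 to 0.016 for Pfkfb3, -0.14 to 0.012 for Pfkfb4, -0.059 to 0.069 for Egln1 and -0.12 to 0.026 for Kdm3a. The cause was not tested. The filter of 1 CPM in all 12 libraries kept 28 members, and 29 were in the deposited log2 values. Depth limits Adm, Car9 and Slc2a3, with reads in single digits in some libraries, and Aldoc in line 52419, with 6 reads in the Cre library.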

Other observations

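The balance of related isozymes was read as the ratio of their CPM per kb of exon. The ratio of Egln3 to Egln1 had a median of 0.655 over Cre libraries and 0.854 over parental libraries, lower in 6 of 6 pairs, with 0.0488 in Cre cells against 0.501 in parental cells of line 52424. Hk2 to Hk1 had medians of 0.289 in Cre cells and 0.357 in parental cells, Pfkp to Pfkl 0.257 in Cre cells and 0.318 in parental cells, and P4ha2 to P4ha1 0.750 in Cre cells and 0.860 in parental cells, each lower in 5 of 6 pairs. Aldoc to Aldoa had 0.049 in Cre cells and 0.053 in parental cells, lower in 4 of 6 pairs. Pfkfb4 to Pfkfb3, with 0.505 in Cre cells and 0.42 in parental cells, and Slc2a3 to Slc2a1, with 0.0052 in Cre cells and 0.0084 in parental cells, were lower in 3 of 6 pairs. These ratios were not tested. Pfkfb4 to Pfkfb3 was 2.07 in Cre cells and 3.22 in parental cells of line 52419, and close to even in 53369, but 0.520 or less in Cre cells and 0.457 or less in parental cells of the other 4 lines. Slc2a3 to Slc2a1 was 0.130 in Cre cells and 0.377 in parental cells of 52419, and at most 0.0187 in Cre cells and 0.0233 in parental cells elsewhere. Per kb, Pkm was the most abundant member, with a mean of 1019 in Cre cells and 868.5 in parental cells, followed by Ldha with 640.4 in Cre cells and 596 in parental cells.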
